A study of Drosophila melanogaster with 96 samples.

Results

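Male flies that had fasted and then eaten for 4 h were set against males killed at the end of the fast. The comparison holds 17 whole-body mRNA libraries of the 96 in the series, each made from 1 fly: 8 males at 4 h and 9 males at 0 h. All were virgin w1118 adults, 3 days old, kept 1 per well on liquid chemically defined food for 24 h and then on buffered saline alone for 6 h. The 0 h flies were taken at that point. The 4 h flies were then given the same defined food with the red dye sulforhodamine B and with DMSO, a solvent, at 0.1% (3 flies), 0.2% (3 flies) or 0.4% (2 flies). The 0 h flies carry the same 3 DMSO labels, 3 flies each, but had eaten no DMSO and no dye, so food, dye and DMSO change together here. Each time had a feeding plate of its own, so time, plate and hour of the day cannot be told apart. All 17 libraries come from sequencing run0456. The male library titled 4 h, 0.4% DMSO, replicate 1 was left out by the rule of the comparison, because it was shallow (958896 gene counts, against 2860991 to 7028584 in the others) and rich in immune transcripts.

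A fasting fly burns stored fat and glycogen, recycles protein through the lysosome and autophagy, and keeps insulin signalling low, which frees the transcription factor foxo to act on its targets. When food returns, insulin and TOR signalling resume and cells of the gut, fat body and male accessory gland again make proteins for export. Those proteins enter the endoplasmic reticulum, where a translocon, chaperones and glycosylation enzymes process them. The question of the comparison is which transcripts had changed in the whole male body after 4 h of feeding.

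Some libraries stood apart from the labels or from their group. External spike-in RNA took 2.68% to 5.80% of the gene count in the 9 libraries at 0 h (median 4.15%) and 0.228% to 0.410% in the 8 at 4 h (median 0.343%), with 0.178% to 0.440% at 2 h and 0.346% to 1.16% at 8 h. The spike-in share thus separates the fasted flies from every fed group, and its part in the differences from 0 h was not tested. The library titled 0 h, 0.4% DMSO, replicate 2 is given as 8 h in another label. Its spike-in share of 4.15% and its level of CG18179, 2.95 CPM, lay within the other 0 h libraries and outside those at 8 h. CG18179 was the largest rise in the comparison that counts this library as 0 h, so its level is no independent check of the label. On the first principal component of the 17 libraries, which took 21.8% of the variance, the 4 h flies of the 0.1% food, replicate 2, and of the 0.2% food, replicate 1, lay at 25.1 and 15.9, within the 0 h flies (-11.8 to 35.4), while the other 4 h flies lay between -34.6 and -17.8. Ribosomal RNA took 8.44% to 42.6% of the gene count at 0 h and 13.5% to 25.8% at 4 h, and the shares above 30% were those of replicates 1 and 2 of the 0.2% food at 0 h. Markers fixed for testis (27 of 27 genes tested) and accessory gland (37 of 37) were present in every library, and of 17 ovary and female genes 5 passed the filter on low counts, with a summed level of 18.6 to 28.6 CPM at 0 h and 20.6 to 30.5 at 4 h.

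After 4 h of feeding, 177 of 12802 genes tested differed from the fasted flies at an adjusted p under 0.05 (edgeR's quasi-likelihood test, Benjamini-Hochberg adjusted over all genes), which is 1.38% of them. Of these, 72 rose (0.562%) and 105 fell (0.82%). The rises were small: their median log2 fold change was 0.56 and 9 of 72 passed 1, whereas the falls had a median of -0.82 and 46 of 105 passed -1. Named rises included a predicted serine protease, CG18179, and 11 genes of the endoplasmic reticulum. Named falls included the trypsin thetaTry, the fat oxidation genes whd and Mcad, 3 cathepsins and 4 Bomanin peptides. The Bomanin falls depended on leaving out the shallow library, which was rich in immune transcripts. All 177 kept their direction when any single library was left out, which was close to given, since they were called on these same libraries. The number of genes called was lowest, at 7, without the 4 h fly of the 0.4% food, replicate 3. It was highest, at 413, without the 4 h fly of the 0.1% food, replicate 2. Of the 17 libraries, 11 moved it by more than 1.5 times. With the shallow library put back it was 121, and with only the 17 libraries in the fit, without the other males that add to the estimate of spread, it was 38. Of the 56 called genes that the rule for naming gave, 7 kept their call without the 4 h fly of the 0.4% food, replicate 3, and all 56 without that of the 0.1% food, replicate 2. Those 7 are the whole count without that first fly, so the other called genes described here, which lie outside the rule, lost their call there. For 9 of the 56 the omission of 1 library moved the fold by more than 1.5 times, and these are given with the gene.

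**Figure D1:**
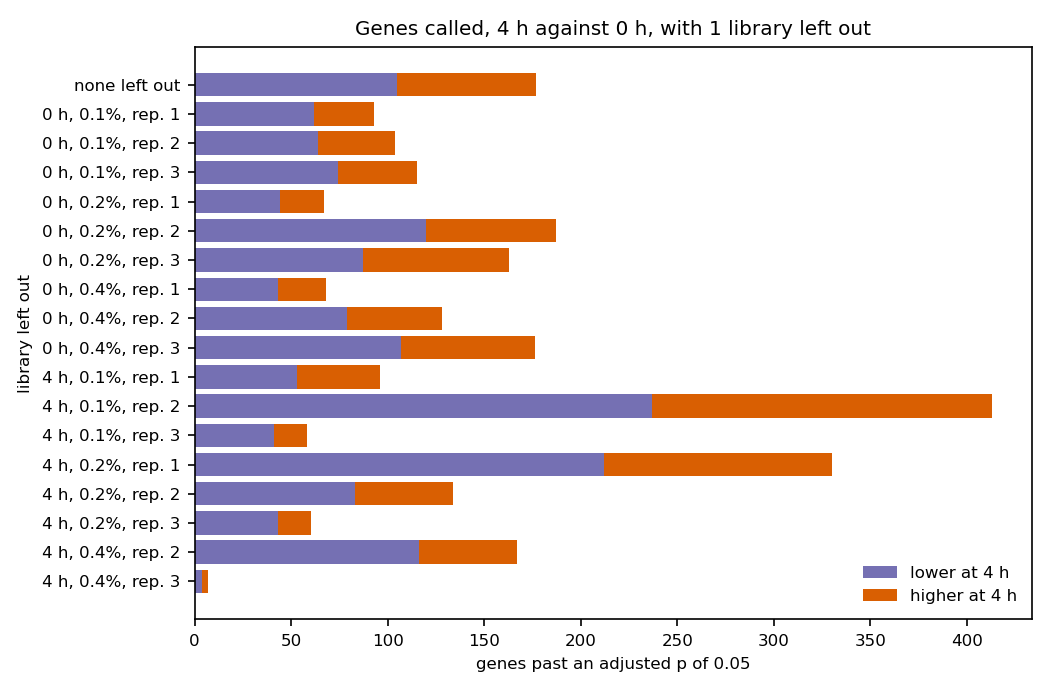
Number of genes past an adjusted p of 0.05 at 4 h against 0 h (x axis) when no library or 1 library was left out (y axis; time, DMSO level of the food and replicate). Purple bars are genes lower and orange bars genes higher at 4 h; the count lies between 7 and 413, around the 177 obtained with every library.

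Levels below are in CPM, a gene's counts relative to the depth of its library, after TMM scaling, which evens out differences in composition between libraries, and a fold change is the log2 difference between 4 h and 0 h, averaged over the 3 foods, with its standard error. Fewer cells of a type and less RNA per cell cannot be told apart in whole flies.

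CG18179 (FBgn0036023), a predicted serine protease of the trypsin family, rose more than any other gene. Its level ran from 0.183 to 6.11 CPM at 0 h (median 2.25) and from 1.89 to 85.2 CPM at 4 h (median 28.3). Every 4 h fly lay above all fasted flies except the fly of the 0.1% food, replicate 2, at 1.89 CPM. The log2 fold change was 4.01 ± 0.60, 16.1-fold, with an adjusted p of 0.00113 (edgeR's quasi-likelihood test), and the call was kept whichever of the 17 libraries was left out. Without the 4 h fly of the 0.1% food, replicate 3, the log2 fold change was 3.30, 9.87-fold. With all libraries the log2 fold change was 3.74 at 2 h and 4.73 at 8 h, both against the same fasted flies.

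Mgat1 (FBgn0034521), the Golgi enzyme that starts complex N-glycans on secreted and surface proteins, ran from 29.2 to 46.6 CPM at 0 h (median 38.9) and from 37.9 to 133 CPM at 4 h (median 71.9). Again 7 of the 8 fed flies lay above all fasted flies, and the exception was the same fly. The log2 fold change of Mgat1 was 0.96 ± 0.16 (adjusted p = 0.00236). CG7384, whose level is low (3.87 CPM at 0 h and 7.45 at 4 h, medians), rose by 0.87 ± 0.16 with an adjusted p of 0.00436. CG18179, Mgat1 and CG7384 were the 3 rises that kept their call under every single-library omission.

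**Figure D2:**
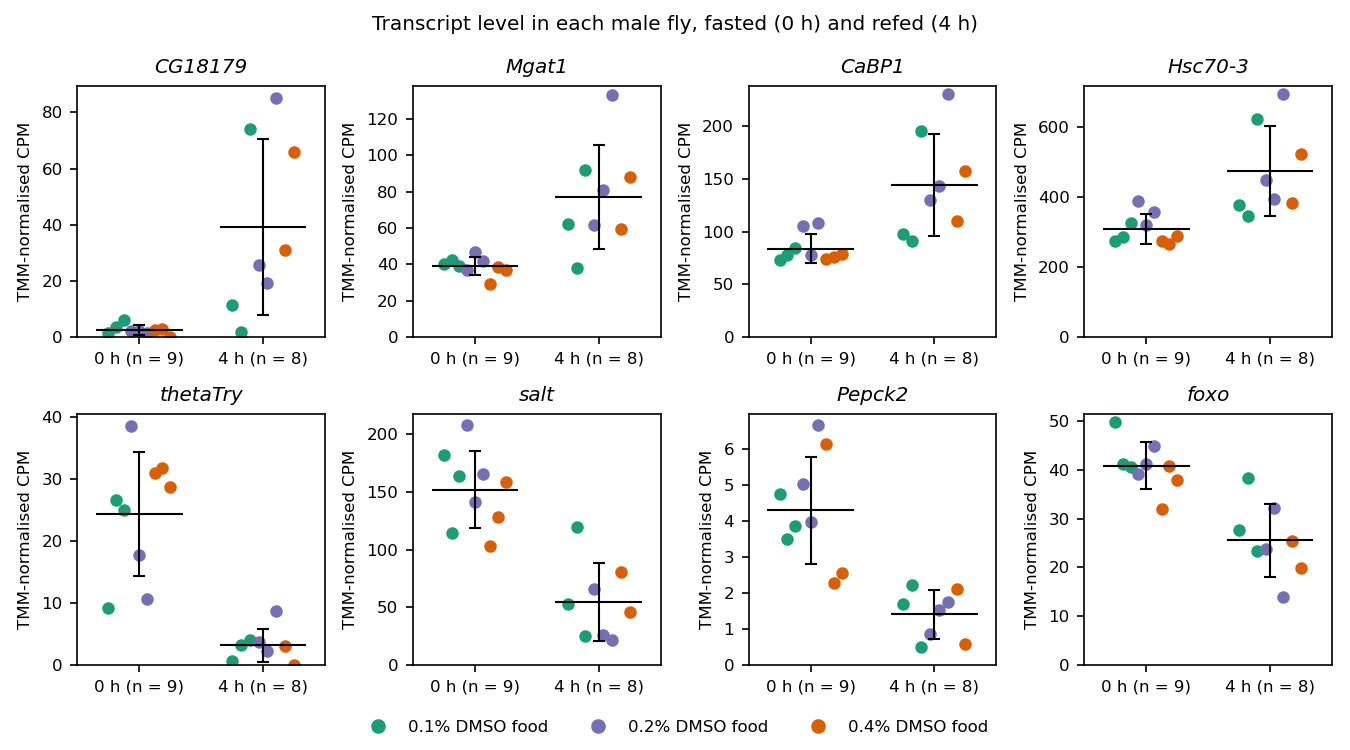
TMM-normalised CPM (y axis, linear from 0) of 8 genes in each male fly at 0 h (n = 9) and 4 h (n = 8), coloured by the DMSO level of the food; lines and bars are the mean and SD. CG18179 and Mgat1 lie above all fasted flies in 7 of 8 fed flies, and thetaTry and Pepck2 are lower in all 8 fed flies than in any fasted fly.

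A group of endoplasmic reticulum genes rose. Of 43 genes for entry into and folding in the endoplasmic reticulum, a list drawn up after the values were seen and therefore only a description, 11 rose and 0 fell, beside 0.562% and 0.82% of all genes tested. The median log2 fold change of the 43 was 0.34, against 0.00 (-0.00066) for all genes, and 39 of the 43 were above 0. The number that rose was 14 with the shallow library put back and 20 without the 4 h fly of the 0.1% food, replicate 2. It was 2 with only the 17 libraries in the fit, 1 without the 2 fasted flies above 30% ribosomal RNA and 0 without the 4 h fly of the 0.4% food, replicate 3. Without the 0 h fly of the 0.4% food, replicate 2, whose time labels conflict, it was 6.

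Grp170 (FBgn0023529), an exchange factor for the main chaperone of the compartment, ran from 94.5 to 125 CPM at 0 h (median 117) and from 128 to 256 CPM at 4 h (median 175). The groups did not overlap: all 8 fed flies were above all 9 fasted flies, which 3 of all 12802 genes did in this direction (0.0234%). Its log2 fold change was 0.61 ± 0.13 (adjusted p = 0.0124). CG33303 (predicted ribophorin I, a subunit of the enzyme that attaches N-glycans) lies outside the list and was the other called gene with this separation, from 65.5 to 71.2 CPM at 0 h (median 69.5) and from 72.9 to 122 CPM at 4 h (median 95.7). It rose by a log2 fold change of 0.46 ± 0.09 (adjusted p = 0.00546).

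Among the chaperones, Hsc70-3 (BiP, the main folding chaperone) ran from 265 to 389.6 CPM at 0 h (median 287) and from 346 to 695 CPM at 4 h (median 421). Of the 8 fed flies 5 lay above every fasted fly and the rest lay inside their range. The log2 fold change was 0.62 ± 0.13 (adjusted p = 0.0135). Gp93 (the Hsp90 of the compartment) rose by a log2 fold change of 0.66 ± 0.14 (adjusted p = 0.0096), and CaBP1 (a protein disulfide isomerase) by 0.76 ± 0.15 (adjusted p = 0.00805). Calr (calreticulin, a lectin chaperone) rose by a log2 fold change of 0.45 ± 0.12 (adjusted p = 0.048). The heat shock list of 24 genes, 17 of them tested, held Gp93 and Hsc70-3 as its only rises and no fall, beside 0.562% and 0.82% of all genes. Its median was 0.05, and the cytosolic cochaperone DnaJ-1 had a log2 fold change of 0.26 ± 0.07 (adjusted p = 0.0539).

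At the entry to the compartment, TRAM (a helper of the translocon) rose by a log2 fold change of 0.76 ± 0.16 (adjusted p = 0.013), Sec61beta (a translocon subunit) by 0.47 ± 0.13 (adjusted p = 0.048), and Tapdelta (a subunit of the translocon-associated complex) by 0.43 ± 0.11 (adjusted p = 0.0375). Spp, the signal peptide peptidase, rose by a log2 fold change of 0.52 ± 0.11 (adjusted p = 0.0139), and Stt3B, the catalytic subunit of an oligosaccharyltransferase, by 0.39 ± 0.10 (adjusted p = 0.0329). KdelR, the receptor that returns escaped chaperones from the Golgi, rose by a log2 fold change of 0.36 ± 0.09 (adjusted p = 0.0319). These 11 list members, without CG33303, were higher at 4 h in each of the 3 foods: over the foods, their log2 fold changes ran from 0.20 to 0.96. Their calls rest on the mean of these foods, so the shared direction is no separate support. Of 87 cytosolic ribosomal protein genes tested edgeR called none (12 at an unadjusted p under 0.05, and 4 falls in DESeq2), with a median log2 fold change of -0.03. Of 31 aminoacyl-tRNA synthetases edgeR and DESeq2 called none (2 at an unadjusted p under 0.05), with a median of 0.02. In the set of 31 genes of ribosome biogenesis, Myc, the growth regulator that drives them, was the 1 call, beside 0.82% of all genes that fell. Myc fell by 0.79 ± 0.20 on the log2 scale (adjusted p = 0.0359), and the median of the set was 0.00. RIOK2, Non1 and Ns2 of that set did not pass (log2 fold changes -0.33, -0.49 and -0.21, adjusted p from 0.172 to 0.279).

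**Figure D3:**
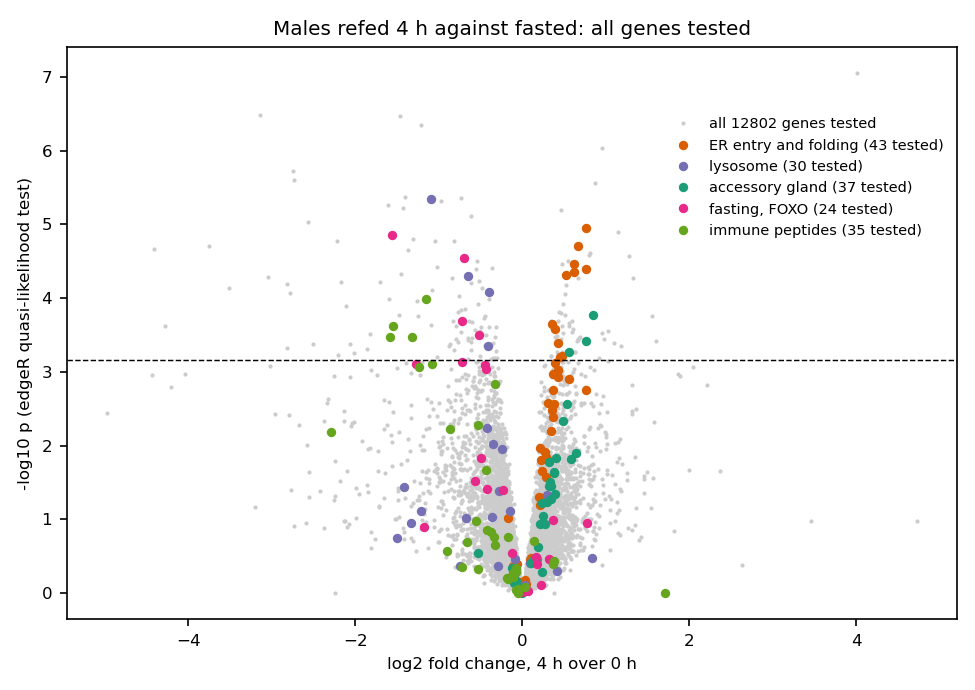
Each of the 12802 genes tested by its log2 fold change at 4 h over 0 h (x axis) and the -log10 of its p in edgeR's quasi-likelihood test (y axis), with 5 gene lists coloured; the dashed line is the largest p that passes the adjusted threshold. Of the endoplasmic reticulum genes (orange) 11 pass the line to the right, and 4 lysosomal (purple) and 4 fasting genes (pink) pass it to the left.

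Some genes that fasting flies use to burn fat and make sugar fell. Of 24 genes of the fasting programme under foxo, 4 fell and 0 rose, beside 0.82% and 0.562% of all genes tested, and the median log2 fold change was -0.33. Of these 4, Pepck2 and foxo kept their call in 16 of the 17 omissions of a single library each, whd in 10 and Mcad in 8, and none did without the 4 h fly of the 0.4% food, replicate 3. Pepck2 (FBgn0034356), the mitochondrial phosphoenolpyruvate carboxykinase of gluconeogenesis, ran from 2.28 to 6.68 CPM at 0 h (median 3.97) and from 0.507 to 2.23 CPM at 4 h (median 1.61). All 8 fed flies were below all 9 fasted flies, as for 8 of all 12802 genes (0.0625%). Its log2 fold change was -1.57 ± 0.31 (adjusted p = 0.009), at a low level of expression.

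Mcad, the medium-chain acyl-CoA dehydrogenase of fat oxidation, ran from 139.6 to 260.1 CPM at 0 h (median 165) and from 96.2 to 139 CPM at 4 h (median 119). It too showed no overlap, although its lowest fasted fly and highest fed fly nearly met. It fell by 0.52 ± 0.13 on the log2 scale (adjusted p = 0.0357). whd, the carnitine palmitoyltransferase that passes fatty acids into mitochondria, had a log2 fold change of -0.73 ± 0.18 (adjusted p = 0.0303). foxo itself ran from 32.1 to 49.7 CPM at 0 h (median 40.9) and from 13.9 to 38.4 CPM at 4 h (median 24.5), with a log2 fold change of -0.70 ± 0.15 (adjusted p = 0.0115). Of the 8 fed flies, 6 had less foxo transcript than any fasted fly.

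Other members of the programme did not pass. Thor (4E-BP, a translation repressor) had a log2 fold change of -1.27 ± 0.35 (adjusted p = 0.0513), InR (the insulin receptor) one of -0.72 ± 0.20 (adjusted p = 0.0507) and bmm (the fat-body triglyceride lipase) one of -0.50 ± 0.19 (adjusted p = 0.217). In 7 of 8 fed flies Thor was below every fasted fly, with a median of 121 CPM against 377 CPM, and the eighth was at 443 CPM. Pepck1, the cytosolic form of the enzyme, had no counts in any of the 17 libraries. The proteasome gene Prosalpha1 and the mitochondrial ribosomal gene mRpL53 had none either, so the lack of counts sets no upper limit on the level of Pepck1. The sugar-responsive repressor gene sug had a log2 fold change of -0.84 ± 0.34 (adjusted p = 0.25).

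Some lysosomal proteases fell after feeding. Of 30 lysosomal proteases and hydrolases tested, also a list drawn up after the values were seen, 4 fell and 0 rose, beside 0.82% and 0.562% of all genes, and the median log2 fold change was -0.26. CREG, a lysosomal glycoprotein, ran from 50.4 to 189 CPM at 0 h (median 60.6) and from 30.9 to 57.6 CPM at 4 h (median 46.4). All but 2 of the fed flies lay below every fasted fly. Its log2 fold change was -1.10 ± 0.20 (adjusted p = 0.00517) over the foods, made of -0.14, -1.63 and -1.51 in the 0.1%, 0.2% and 0.4% foods.

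CtsL1, the cysteine protease cathepsin L, ran from 362 to 701 CPM at 0 h (median 457) and from 216 to 397 CPM at 4 h (median 331). Of the 8 fed flies, 6 lay below every fasted fly. It had a log2 fold change of -0.65 ± 0.14 (adjusted p = 0.0139), CtsB (cathepsin B) one of -0.40 ± 0.09 (adjusted p = 0.0181) and CtsF (cathepsin F) one of -0.41 ± 0.11 (adjusted p = 0.0397). With the shallow library put back 1 of the list fell, and none fell with only the 17 libraries in the fit or without the 4 h fly of the 0.4% food, replicate 3. Atg17, a scaffold of the kinase complex that starts autophagy, had a log2 fold change of -0.52 ± 0.12 (adjusted p = 0.0148). It was the 1 call among 21 genes of the REPTOR and autophagy list, beside 0.82% of all genes that fell. The median of that list was -0.25. Atg18a (log2 fold change -0.37 ± 0.10, adjusted p = 0.0539), REPTOR-BP (log2 fold change -0.65 ± 0.19, adjusted p = 0.076) and REPTOR (log2 fold change -0.45 ± 0.16, adjusted p = 0.172), the last 2 a partner and a transcription factor held back by TOR, did not pass. S6k, a kinase that TOR activates, had a log2 fold change of -0.55 ± 0.12 (adjusted p = 0.013). LpR2, a lipophorin receptor that takes up circulating lipid, had a log2 fold change of -1.02 ± 0.22 (adjusted p = 0.013); S6k and LpR2 were picked for mention after their values were seen.

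Single digestive enzymes fell steeply. thetaTry (FBgn0011555), a trypsin, ran from 9.14 to 38.7 CPM at 0 h (median 26.7) and from 0 to 8.69 CPM at 4 h (median 3.14). No fed fly reached the lowest fasted fly. The log2 fold change was -3.14 ± 0.51 (adjusted p = 0.00144), 8.8-fold lower, and the call was kept in every omission of a single library. The size was less steady: without the 4 h fly of the 0.4% food, replicate 2, the log2 fold change was -5.12, 34.8-fold lower. CG6277, a predicted lipase, had the steepest log2 fold change among the called falls, -4.41 ± 0.91 (adjusted p = 0.0101). It ran from 5.11 to 115 CPM at 0 h (median 11.9) and from 0 to 28.6 CPM at 4 h (median 0.385), and its highest fed fly was again that of the 0.1% food, replicate 2. Without that fly the log2 fold change of CG6277 was -7.26. It was -5.10 without the 4 h fly of the 0.4% food, replicate 3, where the call ended (adjusted p = 0.109), and -3.61 and -3.75 without replicate 2 of the 0.1% and of the 0.4% food at 0 h. CG8562, a predicted carboxypeptidase, had a log2 fold change of -3.51 ± 0.79 (adjusted p = 0.0166), from 9.04 to 65.5 CPM at 0 h (median 37.9) and from 0 to 37.7 CPM at 4 h (median 4.6). Without the 4 h fly of the 0.4% food, replicate 2, the log2 fold change of CG8562 was -4.77 and the call ended (adjusted p = 0.0572).

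Of 33 listed digestive proteases, lipases and lysozymes tested, thetaTry was the 1 call, beside 0.82% of all genes that fell. The median log2 fold change of the list was -0.59 and 24 members were below 0. yip7, a chymotrypsin-like protease, had a log2 fold change of -1.14 ± 0.35 (adjusted p = 0.0895), mag, a gut lipase, one of -2.67 ± 0.90 (adjusted p = 0.134) and kappaTry, a trypsin-like gene, one of -0.86 ± 0.31 (adjusted p = 0.162); none of the 3 passed. Of 20 genes listed under carbohydrate digestion edgeR and DESeq2 called none (7 at an unadjusted p under 0.05). That list also holds lysosomal alpha-mannosidases. In it 17 genes were below 0 and the median was -0.75. Amy-p, the main amylase, ran from 699.8 to 1143 CPM at 0 h (median 866) and from 739 to 1434 CPM at 4 h (median 869), and the groups overlapped throughout (log2 fold change 0.12 ± 0.27, adjusted p = 0.917). GATAe, the transcription factor of the midgut, had a log2 fold change of -0.88 ± 0.23 (adjusted p = 0.0397). It was the 1 call among 11 gut markers, beside 0.82% of all genes that fell. The summed level of these markers ran from 533 to 808 CPM at 0 h and from 413 to 793 CPM at 4 h. In the same list Vha100-4 (log2 fold change -4.44 ± 1.24, adjusted p = 0.0591), Muc68E (log2 fold change -1.34 ± 0.44, adjusted p = 0.12) and Peritrophin-A (log2 fold change 0.60 ± 0.31, adjusted p = 0.402) did not pass. The part of the gut's share of the body in the falls of gut enzymes was not tested.

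A transporter gave one of the steadiest falls. salt (FBgn0039872), a sodium-solute symporter of the SLC5 family, ran from 103 to 208 CPM at 0 h (median 159) and from 21.7 to 119.9 CPM at 4 h (median 49.6). All fed flies but 1 lay below the lowest fasted fly, and the exception, at 119.9 CPM, was the fly of the 0.1% food, replicate 2. For salt the log2 fold change was -1.47 ± 0.24 (adjusted p = 0.00144). CG32195 ran from 30.7 to 66.2 CPM at 0 h (median 40.7) and from 8.98 to 36.4 CPM at 4 h (median 17.8) and fell by 1.22 ± 0.20 on the log2 scale (adjusted p = 0.00144); salt, thetaTry and CG32195 were the 3 falls kept under every omission. CG1946, a predicted acyltransferase of triglyceride synthesis, had a log2 fold change of -2.73 ± 0.49 (adjusted p = 0.00436). CG4928 (log2 fold change -0.74 ± 0.14, adjusted p = 0.00517), OtopLb, of the otopetrin proton channels (log2 fold change -0.98 ± 0.18, adjusted p = 0.00517), CG42249 (log2 fold change -1.40 ± 0.26, adjusted p = 0.00517) and CG34043 (log2 fold change -1.60 ± 0.30, adjusted p = 0.00533) complete the falls with the smallest p. Among rises, Orct, an organic cation transporter, had a log2 fold change of 0.82 ± 0.17 (adjusted p = 0.0109) and CG31515 one of 0.80 ± 0.17 (adjusted p = 0.011).

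Further large rises, all of genes at low levels, were CG3348 (log2 fold change 1.55 ± 0.37, adjusted p = 0.0282), CG13155 (log2 fold change 1.33 ± 0.29, adjusted p = 0.0139), CG34447 (log2 fold change 1.27 ± 0.27, adjusted p = 0.011) and CG13024 (log2 fold change 1.15 ± 0.23, adjusted p = 0.00857). CG12911 (log2 fold change 1.02 ± 0.25, adjusted p = 0.034), lectin-21Cb (log2 fold change 0.98 ± 0.25, adjusted p = 0.0359) and the long noncoding RNAs lncRNA:CR46083 (log2 fold change 1.19 ± 0.31, adjusted p = 0.0394) and lncRNA:CR45158 (log2 fold change 1.10 ± 0.28, adjusted p = 0.0375) followed. The remaining large falls were mat (log2 fold change -3.04 ± 0.66, adjusted p = 0.0139), CG15423 (log2 fold change -2.78 ± 0.63, adjusted p = 0.0181) and CG43774 (log2 fold change -2.74 ± 0.49, adjusted p = 0.00401). Without the 4 h fly of the 0.1% food, replicate 2, CG15423 had a log2 fold change of -3.51. CG3348 ran from 5.47 to 9.67 CPM at 0 h (median 8.21) and from 4.17 to 43.5 CPM at 4 h (median 14.6), with 6 of 8 fed flies above every fasted fly and 1 below every one.

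Some immune and stress transcripts fell after feeding, unevenly between flies. Of 35 immune genes tested, 4 fell and 0 rose, beside 0.82% and 0.562% of all genes (median log2 fold change -0.34), and all 4 were Bomanins, short secreted peptides of the Toll response. BomS2 ran from 45.3 to 322 CPM at 0 h (median 96.8) and from 14.5 to 63.4 CPM at 4 h (median 37.9), and BomS1 from 5.29 to 75.1 CPM at 0 h (median 15.8) and from 4.58 to 20.7 CPM at 4 h (median 8.55). The groups overlapped for both, and BomS1 kept its call in 5 of the 17 omissions. The log2 fold changes were -1.55 ± 0.38 (adjusted p = 0.0319) for BomS2, -1.59 ± 0.40 (adjusted p = 0.0359) for BomS1, -1.33 ± 0.34 (adjusted p = 0.0359) for BomBc2 and -1.15 ± 0.26 (adjusted p = 0.0202) for BomBc3. The direction depended on the shallow library, which was left out in part because it was rich in immune transcripts. The falls of immune genes therefore rest on a choice made on these same transcripts. With that library put back, 1 gene of the list rose and 0 fell. In the shallow library BomS1 was at 6602 CPM and BomS2 at 5009 CPM. With it the 4 log2 fold changes turned to values between 0.26 and 1.23, with adjusted p between 0.423 and 0.89.

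TotM and TotC, Turandot stress peptides secreted by the fat body, fell by 3.75 ± 0.77 (adjusted p = 0.0096) and 2.81 ± 0.73 (adjusted p = 0.0409) on the log2 scale. In fasted flies TotM ran from 1.07 to 580.1 CPM (median 6.85), and the highest were replicates 1 and 3 of the 0.2% food, at 552 and 580.1 CPM. By food, the log2 fold change of TotM was -0.99, -8.39 and -1.87 in the 0.1%, 0.2% and 0.4% foods, and that of TotC -0.87, -7.70 and 0.13. Over the 17 single omissions TotM kept its call in 15 and TotC in 4. Without the 4 h fly of the 0.4% food, replicate 3, the log2 fold change was -5.23 for TotM and -4.69 for TotC, the latter no longer called (adjusted p = 0.0509). That of TotM was -2.90 without the 0 h fly of the 0.4% food, replicate 1 (adjusted p = 0.0569). Fst (Frost, a gene induced on recovery from cold) was high in the same 2 fasted flies, at 1075 and 808 CPM, and in replicate 1 of the 0.4% food, at 728 CPM; its median over fasted flies was 15.8 CPM. For Fst the log2 fold change was -4.28 ± 1.05 (adjusted p = 0.0319). Fst kept its call in 8 of the 17 omissions, with a log2 fold change of -3.64 without the 0 h fly of the 0.4% food, replicate 1 (adjusted p = 0.0843), and of -4.99 without the 4 h fly of the 0.1% food, replicate 2. Stat92E, the transcription factor of the JAK-STAT pathway that drives Turandot genes, had a log2 fold change of -0.54 ± 0.11 (adjusted p = 0.012), from 66.4 to 121 CPM at 0 h (median 86.9) and from 44 to 76.5 CPM at 4 h (median 60.2); 6 of 8 fed flies lay below all fasted flies. TotA did not pass (log2 fold change -2.25 ± 0.64, adjusted p = 0.06). Of the 12 genes of the Turandot and JAK-STAT list tested, 3 fell and 0 rose, beside 0.82% and 0.562% of all genes, with a median of -0.41. With the shallow library put back 1 of them fell.

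Detoxification genes changed singly. Of 77 cytochrome P450 genes tested 3 fell and 0 rose, beside 0.82% and 0.562% of all genes tested. The 3 were Cyp4e3 (log2 fold change -2.81 ± 0.63, adjusted p = 0.0154), Cyp6a9 (log2 fold change -0.84 ± 0.18, adjusted p = 0.0139) and Cyp6d5 (log2 fold change -0.74 ± 0.18, adjusted p = 0.034). Among 33 glutathione S-transferases GstT4 fell (log2 fold change -0.65 ± 0.16, adjusted p = 0.0366) and among 28 UDP-glycosyltransferases Ugt50B3 rose (log2 fold change 0.52 ± 0.14, adjusted p = 0.0444). These single calls too stand beside 0.82% of all genes that fell and 0.562% that rose. Cyp4e3 had a log2 fold change of -1.73 without replicate 1 of the 0.1% food at 0 h and of -1.92 without replicate 1 of the 0.4% food at 0 h, and passed in neither (adjusted p = 0.137 and 0.111). The median log2 fold changes of the 3 families were -0.18, 0.02 and -0.04. Cyp4d21 (log2 fold change 0.63 ± 0.18, adjusted p = 0.0704) did not pass, nor did GstE10, GstE3 and GstE14 (log2 fold changes -0.77, 0.47 and 0.68) or Ugt35B1, Ugt303A1 and Ugt303B1 (adjusted p from 0.0949 to 0.28).

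Genes of the male accessory gland, which secretes the proteins of seminal fluid, included a few rises. Of 37 tested, 3 rose and 0 fell, beside 0.562% and 0.82% of all genes tested, 28 were above 0, and the median log2 fold change was 0.24. Acp53C14c ran from 17.5 to 55.9 CPM at 0 h (median 40.1) and from 33.1 to 114 CPM at 4 h (median 66.7). Here 7 of 8 fed flies lay above every fasted fly. Its log2 fold change was 0.85 ± 0.20 (adjusted p = 0.0282), that of Semp1, a seminal metalloprotease, 0.76 ± 0.19 (adjusted p = 0.037), and that of Sfp65A, a seminal fluid protein, 0.56 ± 0.15 (adjusted p = 0.0444). Acp36DE, a glycoprotein needed for sperm storage in the mated female, did not pass (log2 fold change 0.53 ± 0.17, adjusted p = 0.0951). The summed level of the list ran from 11693 to 20290.4 CPM at 0 h and 10366 to 26583 CPM at 4 h, so the groups overlapped. With the shallow library put back 0 of these 3 passed, without the 2 fasted flies above 30% ribosomal RNA 0, and without the 4 h fly of the 0.4% food, replicate 3, 0. Without the 0 h fly of the 0.4% food, replicate 2, whose time labels conflict, 1 gene of the list rose. Of the 27 testis genes edgeR and DESeq2 called none (0 at an unadjusted p under 0.05; median 0.00).

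Several lists held no call in edgeR, given here with their median log2 fold change: 18 genes of the sugar response (median -0.16), 24 of fat and sterol synthesis (-0.09), 18 of glycolysis and trehalose (-0.04), 23 of amino acid stress and ATF4 (0.02), 11 immediate early genes (0.19), 20 nutrient peptides of gut and brain (0.04) and 46 proteasome subunits (-0.02). At an unadjusted p under 0.05 they held 4, 4, 1, 6, 1, 3 and 2 genes, and DESeq2 called 1, 1 and 2 in the sugar, glycolysis and amino acid lists and none in the other 4. The lists of oxidative stress, ribosomal RNA, muscle, fat body and nerve or eye genes held no call by either tool (4, 0, 2, 1 and 2 at an unadjusted p under 0.05). The circadian clock list had none by either tool among 22 genes (1 at an unadjusted p under 0.05) and a median of 0.01: per had a log2 fold change of 0.12 ± 0.13 (adjusted p = 0.777), tim one of 0.13 ± 0.12 (adjusted p = 0.709) and vri one of -0.09 ± 0.13 (adjusted p = 0.849). Among 70 mitochondrial ribosomal proteins 1 rose, mRpS10 (log2 fold change 0.43 ± 0.10, adjusted p = 0.0303), while mRpL16, mRpL20 and mRpS2 did not pass (0.27, 0.47 and 0.28). Among 12 blood cell genes 1 rose, the crystal cell factor lz (log2 fold change 1.60 ± 0.41, adjusted p = 0.0368). Both counts stand beside 0.562% of all genes. The median of lz in fasted flies, 0.351 CPM, lay below the 1.05 CPM that 3 counts equal in the shallowest library. Its call was kept in 5 of the 17 omissions. NimC4, crq and NimC1, phagocyte receptors, did not pass (-1.65, -0.28 and -0.34).

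The 4 h flies were next set beside males taken at 2 h and 8 h. No gene passed at 4 h against 2 h in edgeR (618 at an unadjusted p under 0.05), and DESeq2 called 1. This contrast uses no fasted fly and does not carry the spike-in gap. Against the fasted flies, 162 genes were higher and 162 lower at 2 h, and 1124 were higher and 894 lower at 8 h; these counts share the 0 h flies with the 4 h comparison. The genes called at 4 h were chosen at that time. The 72 that rose had median log2 fold changes of 0.52, 0.56 and 0.66 at 2, 4 and 8 h, and the 105 that fell had -0.66, -0.82 and -0.59.

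The 43 endoplasmic reticulum genes had a median log2 fold change of 0.34, 0.34 and 0.40 at 2, 4 and 8 h. The log2 fold change of Hsc70-3 went from 0.78 ± 0.13 at 2 h to 0.62 ± 0.13 at 4 h and 0.52 ± 0.13 at 8 h. Of the 24 fasting genes 5 fell at 2 h, 4 at 4 h and 6 at 8 h, beside 1.27%, 0.82% and 6.98% of all genes. At 2 h and 4 h 0 of them rose, and at 8 h 2 rose, beside 8.78% of all genes at 8 h. The list's median log2 fold changes were -0.15, -0.33 and -0.26. Among the 4 called at 4 h, whd had log2 fold changes of -0.68, -0.73 and -0.17, and none of the 4 passed at 8 h against 4 h (adjusted p of that difference from 0.106 to 0.92, same test).

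Between 4 h and 8 h, 74 genes rose (0.578% of those tested) and 4 fell (0.0312%). Accessory gland genes were 6 of those that rose, of 37 tested, and the list's median change from 4 h to 8 h was 0.54, against 0.02 for all genes. Acp33A and Acp63F, seminal fluid proteins, rose by log2 fold changes of 0.78 ± 0.16 and 0.73 ± 0.16 in this interval. At 4 h their log2 fold changes over 0 h were 0.35 and 0.19. The count of calls between 4 h and 8 h moved between 0 and 638 when 1 library was left out, lowest without the 8 h fly of the 0.4% food, replicate 2, or the 4 h fly of the 0.4% food, replicate 3, and highest without the 8 h fly of the 0.4% food, replicate 1.

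**Figure D4:**
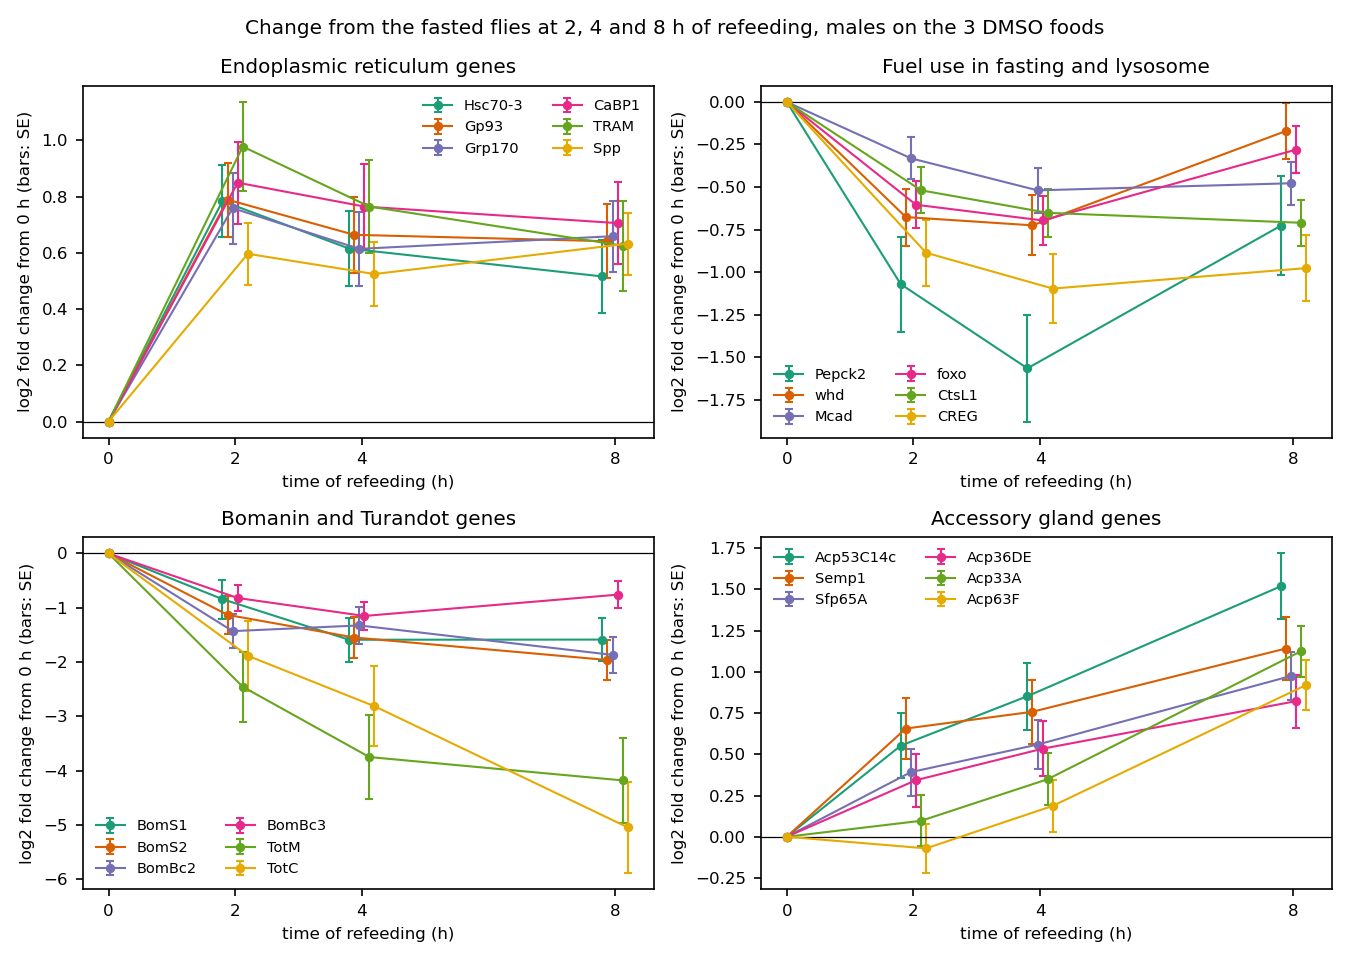
Log2 fold change from the fasted flies (y axis, bars are SE) at 2, 4 and 8 h of refeeding (x axis) for 6 genes in each of 4 groups, in males on the DMSO foods. Most of the genes shown were chosen for their call at 4 h; Hsc70-3 lies at 0.78, 0.62 and 0.52 and whd at -0.68, -0.73 and -0.17 at 2, 4 and 8 h.

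The change from 0 h to 4 h was tested for a difference between the 3 foods. It differed for 1 gene, lncRNA:CR42790, with log2 fold changes of -0.42, 2.69 and -0.41 in the 0.1%, 0.2% and 0.4% foods (adjusted p = 0.0104, edgeR's quasi-likelihood F-test), and 860 genes had an unadjusted p under 0.05. With the shallow library put back, 17 genes differed. Of the 177 called genes, 173 had the same sign in all 3 foods. They were called on the mean of these foods, so this is no independent support. The share of all genes with 1 sign in all 3 foods was not counted. Tested within 1 food, 247 genes passed in the 0.2% food and none in the 0.1% or 0.4% food, where 354 and 887 had an unadjusted p under 0.05.

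Other males gave the same contrast without DMSO. In sequencing run0452, 3 males at 0 h and 2 at 4 h had food without DMSO; none of these flies is among the 17. CG18179 and salt were the 2 genes called there (440 at an unadjusted p under 0.05). CG18179 was at 5.1, 2.95 and 6.91 CPM at 0 h and at 139 and 41.9 CPM at 4 h, a log2 fold change of 4.20 ± 0.52 (adjusted p = 0.0264). salt was at 188, 236 and 135 CPM at 0 h and at 32.2 and 35.9 CPM at 4 h, a log2 fold change of -2.39 ± 0.32 (adjusted p = 0.0264). Neither gene's groups overlapped, but the share of all genes without overlap was not counted for so few flies.

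Of the 177 genes called on the DMSO foods, 173 could be measured in those flies and 163 had the same sign (94.2%), against 64.8% of all 12002 genes measured in both. Of the rises 65 of 71 and of the falls 98 of 102 kept their sign, with median log2 fold changes of 0.33 and -0.48. The 0 h flies of that run also had the higher spike-in share, 1.95% to 6.98% against 0.281% to 0.298%, so feeding and library preparation cannot be told apart in these flies either. The endoplasmic reticulum list had a median of 0.27 there, the fasting list -0.06, the lysosomal list -0.01 and the accessory gland list -0.08, beside 0.03 for all genes.

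**Figure D5:**
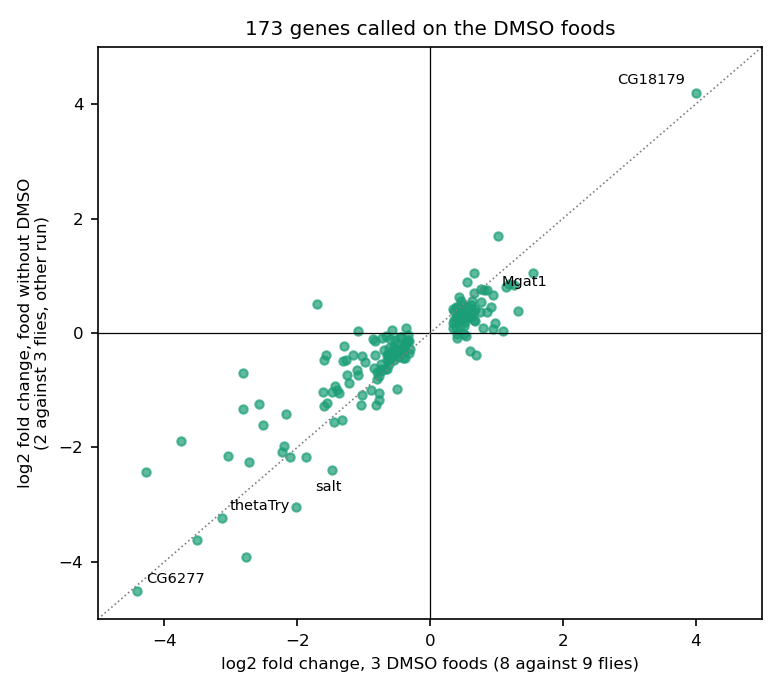
Log2 fold change at 4 h over 0 h on the DMSO foods (x axis, 8 against 9 flies) and on food without DMSO in run0452 (y axis, 2 against 3 other flies) for the 173 of 177 called genes measured in both; the dotted line marks equal change. Of the points, 163 lie in the quadrants of equal sign.

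Females on the same foods and times were sequenced in run0452. The difference between the sexes in the change from 0 h to 4 h passed for no gene of 13216 (1702 at an unadjusted p under 0.05, edgeR's quasi-likelihood test). Both sexes' values can be set side by side: the log2 fold change of CG18179 was 4.01 in males and 0.42 in females (adjusted p of the difference 0.148), that of Mgat1 0.96 and -0.16 (0.124), and that of Mcad -0.52 and -0.41 (0.982). Sex and sequencing run cannot be told apart as levels, though each change lies within 1 run.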

How the data were processed

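The 17 libraries hold poly(A) RNA of single whole flies, made with a stranded kit and read from 1 end over 75 bases, per the labels' protocols and design text. RNA of a second Drosophila species and of a mosquito was mixed in before library preparation, per the labels' protocols. The authors deposited raw read counts per FlyBase gene. The submitters' processing notes list HTSeq 0.6.1p1, TopHat2 2.1.0, STAR 2.4.2a, CASAVA 1.8.2 and bcl2fastq 1.8, without their roles. Neither the labels nor the headers name a genome build, so coordinates are left out. Of 17370 genes, 17155 were matched to a symbol. The 96 spike-ins and 5 summary lines (8.88% to 17.2% of all counts) were left out of library sizes and tests.

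Groups were taken from the sample titles. edgeR 4.0.16 (R 4.3.3, limma 3.58.1) was fitted to 47 male libraries as 16 groups of food and time, which share 1 estimate of spread (biological coefficient of variation 0.216), with TMM scaling and filterByExpr, which kept 12802 genes. The contrast was the mean of the 3 DMSO foods at 4 h minus that at 0 h, by the quasi-likelihood test with an adjusted p (Benjamini-Hochberg) under 0.05. The 47 libraries span both sequencing runs with no term for run, and the group at 4 h without DMSO holds flies of both. The median standard error of a log2 fold change was 0.15. In the shallowest of the 17 libraries 3 counts equal 1.05 CPM; such floors cover counting error only. No pair of replicates agreed within sampling noise (chi-square per degree of freedom at least 6.66 over 16 pairs). The test was also tried on simulated data with known changes. Those data had no differences between foods or in library quality, and no result above rests on them.

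Named genes were the 10 largest and the 10 most significant called genes in each direction with a mean of at least 2 CPM, up to 4 members of each list that held a call, and 9 genes always named, 93 in all. The text also names genes outside this rule, chosen after their values were seen: the other called members of the endoplasmic reticulum and lysosomal lists and single genes such as S6k, LpR2, Acp33A and Acp63F. Members and lists were chosen with earlier results of these data known, and the endoplasmic reticulum and lysosomal lists were added after the values were seen. Alternatives were DESeq2 1.42.0, other scalings, filters and sets of libraries, a replicate block, and the omission of each library.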

Additional observations from a re-analysis of the deposited data

Results flagged for a closer look

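Spike-in RNA, which enters no comparison above, took a median of 4.15% of the gene count at 0 h and 0.343% at 4 h. The part of this gap in the differences from 0 h was not tested.

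A fly stood apart from the rest of its group, on the scale of log2(CPM + 1), in 12 of 186 groups of 8 or 9 flies looked at over the named genes; chance alone marks about 1 in 20 groups. The 4 h fly of the 0.1% food, replicate 2, gave 6 of the 12. It had the highest CPM of CG15423 at 11.8, against 0.191 to 2.35 in the other fed flies, and of Vha100-4, a proton pump subunit of the gut, at 11.7, against 0 to 0.641. It had the lowest of lncRNA:CR46083 at 1.03, against 5.91 to 12.7, and of CG31515 at 9.61, against 20.3 to 36.5. It was also lowest for Cyp4d21 at 49.4, against 82.8 to 128, and for Acp53C14c at 33.1, against 65.2 to 114. The remaining fed fly was that of the 0.1% food, replicate 3, lowest for RIOK2 at 12.4 CPM, against 15.1 to 17.1.

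Among fasted flies, replicate 1 of the 0.4% food was lowest for Orct at 8.69 CPM, against 13.9 to 20.6, and for Acp53C14c at 17.5 CPM, against 32.5 to 55.9. In the 0.2% food, replicate 3 was highest for Mcad at 260.1 CPM, against 139.6 to 183, replicate 2 lowest for Myc at 3.44 CPM, against 7.94 to 14.5, and replicate 1 lowest for mRpL20 at 5.2 CPM, against 8.18 to 11.1.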

How the results depend on the processing

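All 177 called genes kept their sign in each omission of 1 library, which their call on these same libraries made close to given. The count was 180 with DESeq2's size factors in edgeR, 186 with upper-quartile scaling, 154 without a filter, 170 without rRNA genes, 162 with the 35 libraries of 1 run and 121 with the shallow library put back. It fell to 73 without both 0.2% DMSO 0 h libraries above 30% rRNA (chosen after seeing the data). With the 17 libraries alone it was 38, and 4 when those 17 were fitted with food as an additive term. It was 0 in the 0.1% and 0.4% foods alone and 320 in DESeq2. Omitting 1 library gave 7 to 413. Without the 0 h library given as 8 h in another label, 4 fasting, 3 lysosomal, 5 immune and 4 Turandot list genes fell. The cause of these shifts was not tested. Replicate numbers showed no pairing of the flies (correlations -0.29 to 0.17 over 8 pairs, own number best in 3), but so few pairs cannot show that pairing is absent. With the replicate block 0 genes passed (1423 at an unadjusted p under 0.05).

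Reversed values came from the shallow library, with which the log2 fold changes were 0.57 for BomBc3, 0.26 for BomS2, 0.27 for BomBc2 and 1.23 for BomS1, and from single foods. Of the 177 called genes, Fst (1.21) and MFS12 (0.52) reversed in the 0.1% food, CG4734 (0.01) in the 0.2% food and TotC (0.13) in the 0.4% food.

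At 4 h against 2 h every alternative gave 0 except DESeq2 (1); omissions gave 0 to 1. At 8 h against 4 h the 78 calls became 37 with DESeq2's size factors, 38 with upper-quartile scaling, 19 without a filter, 46 with the 35 libraries of 1 run, 131 with the replicate block and 277 in DESeq2; omissions gave 0 to 638. Without DMSO the 2 calls became 8 without a filter, 7 in DESeq2 and 53 with the replicate block; omissions gave 0 to 2. The difference between foods rose from 1 gene to 17 with the shallow library. The difference between the sexes stayed at 0 in its 3 alternatives. Promoter motifs were not counted.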

Other observations

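Outside the lists, called rises included genes of the traffic between endoplasmic reticulum and Golgi, picked after their values were seen. betaCOP, a coat protein of retrograde vesicles, rose by a log2 fold change of 0.34 ± 0.09 (adjusted p = 0.048), Arf4, a small GTPase of vesicle formation, by 0.34 ± 0.09 (adjusted p = 0.048), Sec22, a vesicle fusion protein, by 0.45 ± 0.12 (adjusted p = 0.0475), and Grasp65, a Golgi stacking protein, by 0.56 ± 0.14 (adjusted p = 0.0319). P58IPK, a cochaperone of the reticulum, rose by 0.56 ± 0.14 (adjusted p = 0.0314). In 4 to 6 of the 8 fed flies each of these 5 lay above every fasted fly. Each of the 5 calls (edgeR's quasi-likelihood test) ended in several omissions of a single library: of 17, Grasp65 kept its call in 10, P58IPK in 9, betaCOP in 6, and Arf4 and Sec22 in 5 each, with a highest adjusted p of 0.157 to 0.289, and all 5 ended without both fasted flies above 30% ribosomal RNA (adjusted p from 0.118 to 0.264).

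Among the 74 genes that rose from 4 h to 8 h were 6 subunits or accessory proteins of the vacuolar proton pump, which acidifies organelles: VhaAC45 (0.34 ± 0.07 on the log2 scale), VhaPPA1-1 (0.35 ± 0.08), Vha36-1 (0.38 ± 0.08), Vha16-1 (0.41 ± 0.08), Vha14-1 (0.44 ± 0.09) and VhaM9.7-b (0.58 ± 0.09). None of the 6 was called at 4 h against 0 h. The respiratory chain subunits UQCR-Q, UQCR-11 and ND-MLRQ rose by 0.38 ± 0.09, 0.60 ± 0.13 and 0.48 ± 0.10 in the same interval. These genes too were picked after their values were seen, and the count they come from moved between 0 and 638 when 1 library was left out. The 74 rises are 0.578% of all genes tested. How many members of either family were tested and did not rise was not counted, so no change of a family is claimed.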
